A study of Homo sapiens with 3 samples.

Results

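The outermost 5 Mb of the short arm of chromosome 5 carried 1739 Spindlin1 peaks and 1854 C11orf84 peaks in U2OS cells, of 153468 and 177639 peaks in the whole lists. These are the peaks of both lists whose summit, the base of highest signal, lies from 0 to 5000000 on chromosome 5 of the human genome build hg19. Membership was set by position alone, and the stretch holds TERT and the Iroquois genes IRX4 and IRX2. The lists come from chromatin immunoprecipitation followed by sequencing (ChIP-seq) in U2OS, a human osteosarcoma cell line. One library was made with an antibody against Spindlin1, one with an antibody against C11orf84, and the Input with no antibody. All cells were untreated, grown in the same medium and fixed with 1% formaldehyde for 10 min. No file of the Input library was used here. Each antibody has 1 library, so differences between the region and the rest of the genome are descriptions without a test. Shares carry exact Clopper-Pearson 95% intervals, which cover counting error only, treat neighbouring peaks as independent and are likely too narrow.

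TERT encodes the reverse transcriptase of telomerase, the enzyme that adds telomere repeats to chromosome ends, and it is silent in most somatic cells. U2OS lacks telomerase activity and keeps its telomeres by recombination, the alternative lengthening of telomeres. Spindlin1 is a reader of methylated histone H3 tails, known for binding trimethylated lysine 4 at active promoters, and C11orf84 (also called SPINDOC) is a protein that binds Spindlin1. IRX4, IRX2 and IRX1 are Iroquois homeobox transcription factors of development. RNA was not measured in this series, so nothing below speaks of the activity of these genes.

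Genes could be placed against peaks only where an hg19 position was at hand, which was the case for TERT (about 1253000 to 1295000) and for the IRX4 to IRX2 stretch (1.8 to 2.8 Mb). The RefSeq gene table used here is of build GRCh38, so it served for names and order. From the tip inwards it lists, among others, PLEKHG4B, SDHA (a subunit of succinate dehydrogenase), PDCD6, AHRR (the repressor of the aryl hydrocarbon receptor), EXOC3, SLC9A3 (a sodium and proton exchanger), CEP72, TPPP, ZDHHC11, BRD9 (a bromodomain protein of chromatin remodelling), TRIP13, NKD2 (a regulator of Wnt signalling), SLC12A7 (a potassium and chloride cotransporter), SLC6A19, SLC6A18, TERT, CLPTM1L, SLC6A3 (the dopamine transporter), LPCAT1, MRPL36, NDUFS6 (a subunit of respiratory complex I), IRX4, IRX2 and IRX1.

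Promoters of these genes were rich in G and C. Of 28 listed genes, 27 were found in the table, where C5orf38 was not matched, and 26 of them, all but SLC6A3, had 30 promoter windows in the RefSeq promoter table, each from 250 bases before to 50 bases after a gene start. Their GC content had a median of 75.7% (range 56.0 to 83.0%), against 62.3% over 22131 windows of all protein-coding genes on chromosomes 1 to 22 and X. The GC box GGGCGG, on either strand, occurred in 22 of the 30 windows (73.3%) and in 56.3% of all those windows. GGGAGGG, on either strand, occurred in 13 (43.3%), against 31.1%, and the telomere repeat unit TTAGGG in 0, against 8.83%. Overlapping matches were counted separately, and matches of the first 2 motifs can share a run of G. The TERT window had a GC content of 77.3% with 3 GC boxes and 36 CG dinucleotides. Windows of the 3 Iroquois genes are shown 5′ to 3′ because IRX4 and IRX2 give their name to the stretch in which peaks thin out and IRX1 follows them in the gene order. Capitals mark GC boxes on either strand, of which IRX4 has 2, IRX2 has 4 and IRX1 has 7. IRX4 has 3 windows in the table, and the one farthest upstream is shown.
IRX4 (GRCh38.p14, chr5:1887130-1887429, minus strand): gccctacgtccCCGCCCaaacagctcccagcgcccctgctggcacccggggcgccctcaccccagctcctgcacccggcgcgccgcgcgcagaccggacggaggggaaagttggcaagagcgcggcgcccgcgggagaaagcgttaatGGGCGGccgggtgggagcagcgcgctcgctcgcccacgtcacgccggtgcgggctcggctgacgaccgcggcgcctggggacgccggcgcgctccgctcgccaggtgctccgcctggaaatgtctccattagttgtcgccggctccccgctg
IRX2 (GRCh38.p14, chr5:2751628-2751927, minus strand): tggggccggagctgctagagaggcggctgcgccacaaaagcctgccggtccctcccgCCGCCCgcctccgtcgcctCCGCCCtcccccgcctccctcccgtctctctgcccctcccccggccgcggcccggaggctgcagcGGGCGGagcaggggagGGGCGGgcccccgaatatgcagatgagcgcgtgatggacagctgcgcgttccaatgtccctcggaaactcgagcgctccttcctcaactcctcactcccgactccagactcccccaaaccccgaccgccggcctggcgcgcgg
IRX1 (GRCh38.p14, chr5:3595582-3595881, plus strand): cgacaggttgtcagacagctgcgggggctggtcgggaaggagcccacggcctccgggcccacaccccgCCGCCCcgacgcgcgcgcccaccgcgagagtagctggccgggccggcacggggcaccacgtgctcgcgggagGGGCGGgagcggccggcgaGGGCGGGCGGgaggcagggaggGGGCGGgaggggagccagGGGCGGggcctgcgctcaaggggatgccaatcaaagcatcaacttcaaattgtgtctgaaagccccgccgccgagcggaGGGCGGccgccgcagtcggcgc
These positions are of GRCh38 and were not set against the hg19 peaks. The matches describe letters and do not show binding.

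Peaks of both proteins were several times denser in this chromosome end than in the rest of the genome. The 5 Mb held 348 Spindlin1 and 371 C11orf84 peaks per Mb, against 57.1 and 66.1 per Mb over the other 2658 Mb of chromosomes 1 to 22 and X in which peaks occurred, a ratio of 6.10 and 5.61. The rest of chromosome 5 had 29.9 and 34.4 per Mb. The region was thus 1.13% of the Spindlin1 list and 1.04% of the C11orf84 list in 0.188% of the length. Peak intervals covered 12.5% of its bases for Spindlin1 and 15.2% for C11orf84, against 1.73% and 2.23% elsewhere. The short arm ends of chromosomes 7 and 4, counted over their first 5 Mb, lay on either side of it. Chromosome 7 had 539 and 531 peaks per Mb, and chromosome 4 had 189 and 250.2.

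Most of the peaks lay in the outer part, and their number fell off inwards. By successive megabases from the tip there were 500, 726, 284, 183 and 46 Spindlin1 peaks and 507, 731, 352, 214 and 50 C11orf84 peaks. The second megabase, which holds TERT, was the fullest in both lists. The stretch before the Iroquois genes (0 to 1.8 Mb) had 606 Spindlin1 and 617 C11orf84 peaks per Mb, the IRX4 to IRX2 stretch 397 and 446, and the stretch beyond it (2.8 to 5 Mb) 115 and 135. From 4.3 to 5 Mb there were 24.3 and 32.9 per Mb, below the 57.1 and 66.1 of the rest of the genome. The decline ended with stretches free of peaks. Spindlin1 had none at 4278693 to 4398669 (120.0 kb), at 4739506 to 4867038 (128 kb) or at 4942582 to 5131338 (189 kb, which crosses the 5 Mb limit). C11orf84 had none at 4637760 to 4866664 (229 kb).

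**Figure D1:**
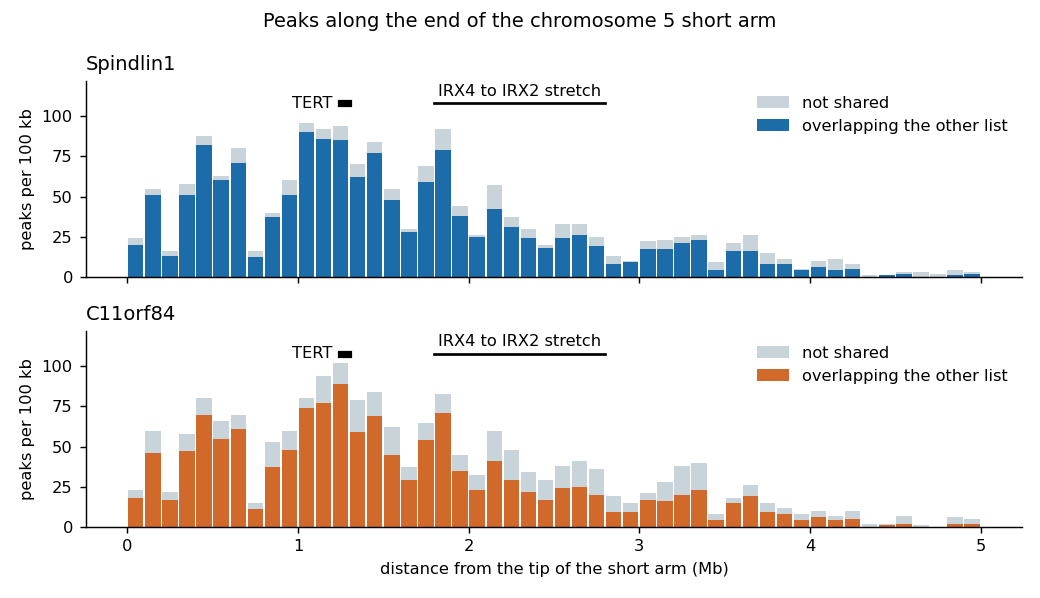
Peaks per 100 kb window against distance from the tip of the short arm (Mb), Spindlin1 above and C11orf84 below; the coloured part of a bar counts peaks that overlap the other list and the grey part those that do not. The fullest window of each list lies between 1 and 1.3 Mb, with 96 Spindlin1 and 102 C11orf84 peaks, and counts fall to between 0 and 7 peaks per window past 4.3 Mb.

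In windows of 100 kb the counts of both proteins rose and dipped at the same places. The fullest windows of the 50 were 1.2 to 1.3 Mb with 94 Spindlin1 and 102 C11orf84 peaks, 1.1 to 1.2 Mb with 92 and 94, and 1 to 1.1 Mb with 96 and 80. The emptiest were 4.7 to 4.8 Mb with 2 and 0 peaks, 4.3 to 4.4 Mb with 1 and 2, and 4.4 to 4.5 Mb with 1 and 2. Troughs also lay within the dense part, at 0.7 to 0.8 Mb (16 Spindlin1 and 15 C11orf84 peaks) and at 0.2 to 0.3 Mb (16 and 22). The median window had 25.5 and 33 peaks. Across the 50 windows the counts of both lists correlated with a Pearson r of 0.979 and a Spearman rho of 0.985, given as a description, since neighbouring windows are not independent and the series has a single Input library. Spindlin1 had more peaks than C11orf84 in 13 windows, fewer in 31 and as many in 6. The number of Spindlin1 peaks per C11orf84 peak was 0.982 from 0 to 1.8 Mb, 0.890 from 1.8 to 2.8 Mb and 0.846 from 2.8 to 5 Mb, against 0.863 in the rest of the genome.

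Peaks of the region were somewhat deeper than elsewhere at the median, but not in the deep tail. Summit depth, the number of fragments over the summit recovered from the deposited fold and p-value, was 12 fragments at the median for Spindlin1 (11 to 15 between the quartiles, range 6 to 28), against 11 (10 to 14) in the rest of the genome. For C11orf84 it was 14 fragments (11 to 16, range 7 to 28), against 12 (10 to 15). Summits under 20 fragments made up 97.4% of Spindlin1 peaks (96.5 to 98.1), against 95.6% elsewhere, so deep summits were a smaller part here. For C11orf84 they made up 94.3% (93.1 to 95.3), an interval that holds the 93.9% found elsewhere. The deepest summits of the genome, at 279 and 288 fragments, lay elsewhere. The authors' fold of the summit over its local background was 6.24 at the median for Spindlin1 (quartiles 5.60 and 7.58) and 6.46 for C11orf84 (quartiles 5.56 and 7.85), against 5.72 and 5.89 elsewhere. Folds of the 2 lists are each relative to their own list. The −log10 q reached 10 or more in 331 Spindlin1 peaks (19.0%, 17.2 to 21.0) and 572 C11orf84 peaks (30.9%, 28.8 to 33.0), against 11.7% and 15.5% elsewhere. On chromosome 7 these shares were 33.2% and 39.7%, and on chromosome 4 they were 3.07% and 4.64%.

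**Figure D2:**
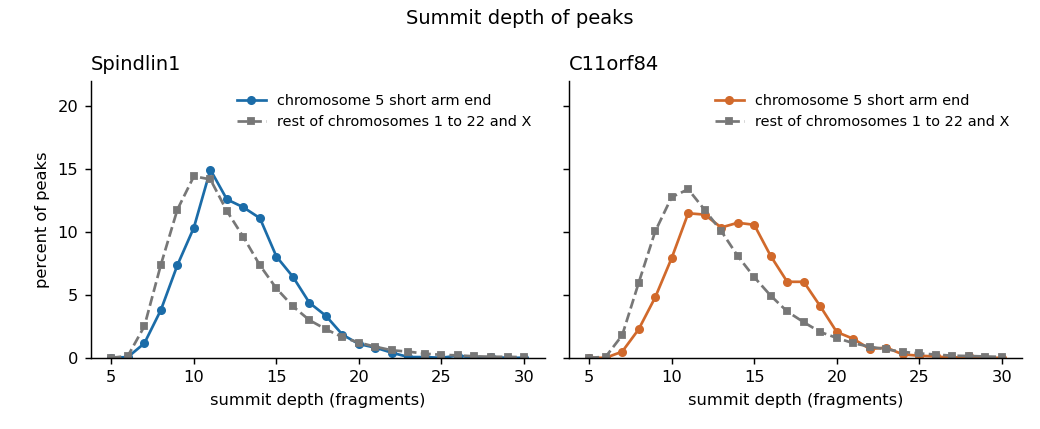
Percent of peaks at each summit depth (fragments), for Spindlin1 on the left and C11orf84 on the right; circles are the chromosome 5 short arm end and squares the rest of chromosomes 1 to 22 and X. The bulk of each curve of the region lies to the right of those of the rest, with a median of 12 against 11 fragments for Spindlin1 and 14 against 12 for C11orf84.

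Peaks were also wider. The median width was 266 bp for Spindlin1 and 285.5 bp for C11orf84, against 229 and 248 bp elsewhere. From 0 to 1.8 Mb it was 314 and 338 bp, from 1.8 to 2.8 Mb it was 224 and 251 bp, and from 2.8 to 5 Mb it was 206 and 222.5 bp. Width and number therefore declined together along the arm, while summit depth changed less, with medians of 13, 12 and 12 fragments for Spindlin1 and 14, 13 and 12 for C11orf84 in the same stretches. Summits of neighbouring peaks were a median of 868 bp apart for Spindlin1 and 915 bp for C11orf84 from 0 to 1.8 Mb, and 2765 and 2090 bp apart from 2.8 to 5 Mb.

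The local background beneath the peaks was raised less often than in the rest of the genome. Its lowest value in each list is called the floor and came to 0.949 Spindlin1 fragments and 1.04 C11orf84 fragments. In the region 902 Spindlin1 peaks (51.9%, 49.5 to 54.2) and 914 C11orf84 peaks (49.3%, 47.0 to 51.6) stood on it, against 48.1% and 49.3% elsewhere, which is the genome's own share for C11orf84. Among peaks whose −log10 q reached 10 it was 60.1% and 57.9%, against 37.99% and 41.4% elsewhere. A raised background, at least 2 times the floor, was found under 90 Spindlin1 peaks (5.18%, 4.18 to 6.32) and 103 C11orf84 peaks (5.56%, 4.56 to 6.70), against 9.11% and 9.23% elsewhere. The highest values were 4.57 times the floor for Spindlin1, at 1973697 to 1973877 and at 1110026 to 1110299, and 4.36 times for C11orf84, at 1110009 to 1110326. From 4.3 to 5 Mb only 1 of 17 Spindlin1 and 3 of 23 C11orf84 peaks stood on the floor, and the median background there was 1.57 and 1.21 times the floor. Which control the background comes from is not given, and the number of DNA copies in the region was not measured.

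More peaks were shared between the proteins here than in the rest of the genome. Sharing here means an overlap of 1 bp or more with any interval called for the other protein. Of the Spindlin1 peaks 1481 (85.2%, 83.4 to 86.8) overlapped a C11orf84 peak, against 69.5% elsewhere. In the other direction 1388 C11orf84 peaks (74.9%, 72.8 to 76.8) were shared, against 57.4% elsewhere. In bases, both lists covered 501 kb together, or 80.1% of the bases in Spindlin1 peaks and 66.2% of those in C11orf84 peaks. Under stricter rules the shares were lower everywhere. With summits at most 200 bp apart 63.9% and 59.8% were shared, against 55.0% and 47.4% elsewhere. Among peaks whose −log10 q reached 10 in both lists it was 57.1% of Spindlin1 peaks, against 48.9%, and 31.5% of C11orf84 peaks (27.7 to 35.5), an interval that holds the 30.8% found elsewhere. Sharing declined inwards with density. From 0 to 1.8 Mb 90.2% of Spindlin1 and 81.6% of C11orf84 peaks were shared, from 1.8 to 2.8 Mb 82.1% and 68.8%, and from 2.8 to 5 Mb 68.3% and 58.7%. From 4.3 to 5 Mb 6 of 17 and 7 of 23 were shared. The denser end of chromosome 7 had 87.2% and 79.5%, and the sparser end of chromosome 4 had 59.8% and 44.0%. Where more bases are covered, more peaks overlap by position alone, and the share due to that was not tested.

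Deeper peaks were shared more often, and at equal depth many classes were shared more often in the region than elsewhere. The shares by depth given here are all of peaks on the floor. The 95% intervals of the region lay above those of the rest at 9 to 14 fragments for Spindlin1 and at 6 to 19 fragments for C11orf84. Among Spindlin1 peaks on the floor with 9 or 10 fragments, 151 of 186 (81.2%, 74.8 to 86.5) were shared, against 60.9% (60.3 to 61.5) elsewhere. At 13 or 14 fragments 93.1% (88.5 to 96.3) were shared, against 80.1% (79.3 to 80.9). At 6 to 8 fragments the values were 63.9% (50.6 to 75.8) and 53.8% (52.8 to 54.7), and at 17 to 19 fragments 95.2% (86.5 to 99.0) and 91.8% (90.5 to 93.0), with intervals that overlap in both classes. For C11orf84 the shares at 9 or 10 fragments were 59.1% (50.9 to 66.9) and 42.6% (42.0 to 43.2), and at 17 to 19 fragments 96.2% (91.3 to 98.7) and 84.3% (83.1 to 85.5). From 20 fragments upwards, 17 of 17 Spindlin1 and 38 of 39 C11orf84 peaks of the region on the floor were shared, against 98.3% and 94.2% elsewhere. Off the floor, unshared peaks of such depth occurred in both lists. Examples are Spindlin1 at 1973697 to 1973877 (20 fragments) and C11orf84 at 1657357 to 1657612 (23 fragments). The higher share was not particular to this chromosome end. At 9 or 10 fragments the chromosome 7 end had 75.3% of Spindlin1 and 64.5% of C11orf84 peaks shared, and the chromosome 4 end 52.2% and 40.3%. At 11 or 12 fragments these were 86.2% and 70.5% on chromosome 7, and 64.4% and 44.6% on chromosome 4.

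**Figure D3:**
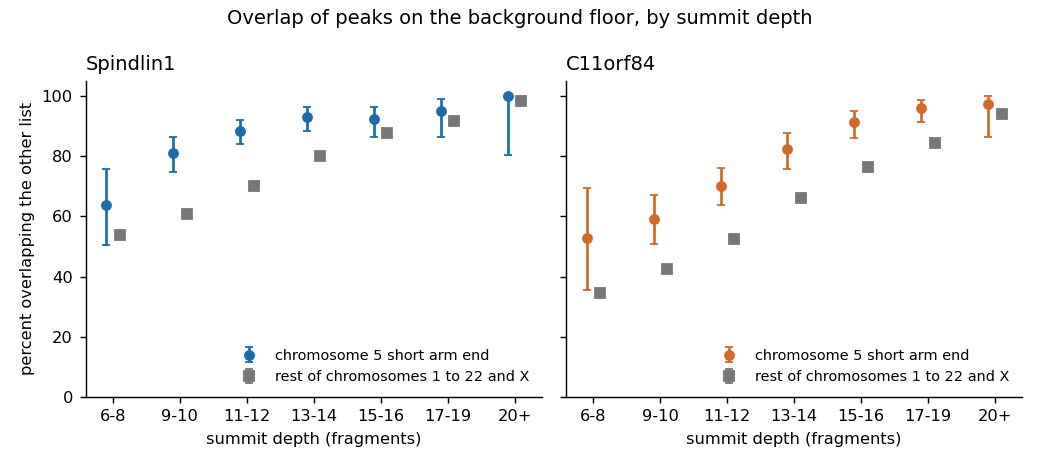
Percent of peaks on the background floor that overlap the other list, by summit depth (fragments), for Spindlin1 on the left and C11orf84 on the right; circles are the chromosome 5 short arm end, squares the rest of chromosomes 1 to 22 and X, and bars are 95% Clopper-Pearson intervals. Every circle lies above its square, and the distance is smallest in the deepest class, at 100% against 98.3% for Spindlin1 and 97.4% against 94.2% for C11orf84.

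Where a single Spindlin1 peak met a single C11orf84 peak, the summits lay close together, which the overlap of short intervals largely sets in advance. There were 1063 such pairs, with median widths of 276 and 319 bp. Their summits were a median of 45 bp apart, and 75% of them within 114.5 bp. Over all shared peaks the nearest summit of the other list was a median of 60 bp from Spindlin1 and 54 bp from C11orf84 summits. Elsewhere these were 58 and 54 bp. The median depth in the pairs was 13 fragments for Spindlin1 and 14 for C11orf84. Spindlin1 was the deeper in 332 pairs (31.2%), C11orf84 in 627 (59.0%), and 104 were equal. Depths were not scaled between the libraries, so these counts do not compare amounts of the proteins. The floors were 0.949 Spindlin1 and 1.04 C11orf84 fragments, and summed over the pairs Spindlin1 had 0.910 fragments per C11orf84 fragment. The depths of both proteins differed by at most 5 fragments in 909 pairs (85.5%). The C11orf84 peak was the wider in 714 pairs (67.2%). Across pairs the depths correlated with a Pearson r of 0.334 and a Spearman rho of 0.333, which in counts this low, and with a single Input library in the series, is no finding.

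**Figure D4:**
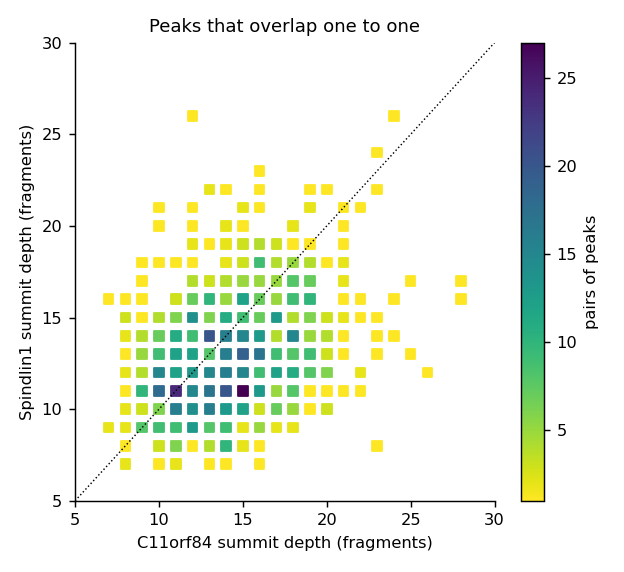
Summit depth (fragments) of Spindlin1 against C11orf84 in the 1063 pairs in which a single peak of each list overlap; colour gives the number of pairs and the dotted line marks equal depth. More pairs lie on the C11orf84 side of the line (627) than on the Spindlin1 side (332). Depths are not scaled between the libraries.

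A few pairs stood far from the line, and they are named as the extremes of these 1063. At 3867940 to 3868225 Spindlin1 had 26 fragments (exact Poisson 95% interval 17.0 to 38.1), against 12 for C11orf84 (6.20 to 21.0), both on the floor. At 927485 to 927704 Spindlin1 had 8 fragments (3.45 to 15.8), against 23 for C11orf84 (14.6 to 34.5). In both pairs the intervals overlap. The pairs deepest in both lists were at 759340 to 760387 with 26 Spindlin1 and 24 C11orf84 fragments, at 892533 to 893324 with 24 and 23, and at 271429 to 271912 with 22 and 23. Summits of the pair at 759340 to 760387 were 623 bp apart. The second and the third stood on a raised background, of 2.85 and 2.73 times the floor at the pair at 892533 to 893324 and 2.28 and 2.18 times at the pair at 271429 to 271912.

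The TERT interval was among the more densely occupied parts of the region. Its 42 kb held 34 Spindlin1 peaks, of which 31 (91.2%, 76.3 to 98.1) were shared, and 40 C11orf84 peaks, of which 34 (85.0%, 70.2 to 94.3) were shared. These intervals hold the 90.2% and 81.6% shared over the whole stretch from 0 to 1.8 Mb, so sharing did not set TERT apart from its surroundings. The region was laid out in 118 tiles of the same length. By number of peaks the TERT tile stood at place 15 for Spindlin1, where the median tile had 11 peaks and the fullest 48, and at place 5 for C11orf84, where these were 13 and 49. Among the 42 tiles that end before 1.8 Mb the medians were 26 and 28 peaks. Peak intervals covered 35.2% of the TERT interval for Spindlin1 and 40.8% for C11orf84, against medians of 23.3% and 27.7% over those 42 tiles. None of these peaks exceeded 21 fragments. Summit depth had a median of 13 fragments for Spindlin1 (range 8 to 19) and 14 for C11orf84 (range 8 to 21), close to the 12 and 14 of the whole region.

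Peaks were spread unevenly along TERT. TERT is transcribed from the minus strand, so it starts at the upper end of the interval, near 1295000. The 14 kb nearest that end held 6 Spindlin1 and 7 C11orf84 peaks, which covered 14.02% and 24.5% of it. The middle 14 kb held 13 and 17 peaks over 47.7% and 51.1%, and the 14 kb at the far end of the gene held 15 and 16 peaks over 43.8% and 46.8%. The longest stretches of the interval without a peak of either list, 1281689 to 1285350 (3.66 kb), 1289112 to 1291767 (2.66 kb) and 1286334 to 1288497 (2.16 kb), all lay in the part nearest the start. Closest to the start were the Spindlin1 peak at 1293542 to 1293959 (14 fragments, fold 7.70) and the C11orf84 peak at 1293174 to 1294610 (18 fragments, fold 8.92). The next peaks beyond were at 1295413 to 1296287 for Spindlin1 (13 fragments, fold 7.18) and at 1295935 to 1296323 for C11orf84 (19 fragments, fold 9.82). The 802 bp between them, 1294611 to 1295412, held no peak of either list. Since the gene's position is given only as approximate here, whether its first base lies in that stretch was not settled.

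**Figure D5:**
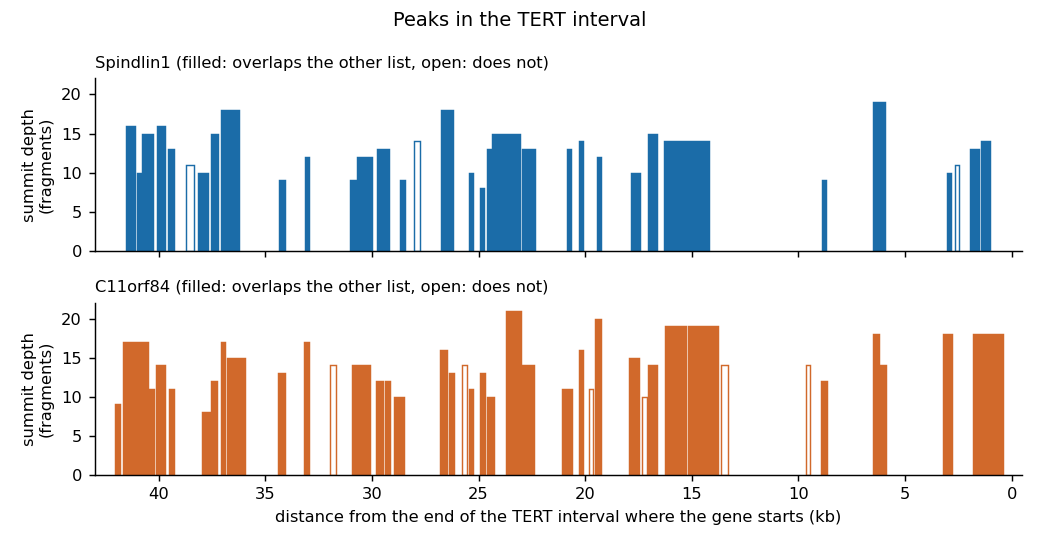
Peaks in the 42 kb TERT interval, against distance from the end where the gene starts (kb, gene start on the right); each bar spans a peak and its height is the summit depth in fragments, filled where the peak overlaps the other list. Spindlin1 (above) has 6 and C11orf84 (below) 7 peaks in the 14 kb nearest the start, against 13 and 17 in the middle 14 kb.

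Within TERT the 2 Spindlin1 peaks of highest fold were at 1268246 to 1268803 (18 fragments, fold 9.75) and at 1257935 to 1258789 (18 fragments, fold 9.12). The deepest C11orf84 peaks meeting them had 16 and 17 fragments. At the second, the C11orf84 peak with the nearest summit, 50 bp away, had 15. The 2 C11orf84 peaks of highest fold were elsewhere in the gene. At the first, 1271302 to 1271975, Spindlin1 had 15 fragments and C11orf84 21 (fold 10.3), and at the second, 1275473 to 1275751, Spindlin1 had 12 and C11orf84 20 (fold 10.3). None of these peaks of highest fold lay in the 14 kb nearest the start, and they rank between 1861 and 4853 in their lists by fold. The fifth C11orf84 peak by fold did lie in those 14 kb, at 1291768 to 1292214, with 10 Spindlin1 and 18 C11orf84 fragments (C11orf84 fold 9.33). A Spindlin1 peak at 1278713 to 1280805, 2093 bp long and the second widest of the region, overlapped 2 C11orf84 peaks, at 1278743 to 1279719 (19 fragments) and at 1279827 to 1281222 (19 fragments).

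TERT lay inside the longest run of peaks in the region. When peaks of either list at most 5 kb apart were joined, 183 runs resulted, with a median length of 3.65 kb. The longest reached from 1048947 to 1363931 (315 kb) and held 293 Spindlin1 and 293 C11orf84 peaks. The next was 1793389 to 1900445 (107 kb, 102 and 90 peaks), at the start of the IRX4 to IRX2 stretch, followed by 454169 to 548642 (94.5 kb, 92 and 86 peaks). The 10 longest runs held 49.7% of the Spindlin1 and 46.9% of the C11orf84 peaks, and 8 of them ended before 1.8 Mb. Peaks of both lists fell in 142 runs, of Spindlin1 alone in 21 and of C11orf84 alone in 20. A single peak made up 35 of the 183 runs, and such a run can hold only 1 list.

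The IRX4 to IRX2 stretch began dense and thinned out. Its first window, 1.8 to 1.9 Mb, had 92 Spindlin1 and 83 C11orf84 peaks, and its last, 2.7 to 2.8 Mb, had 25 and 36. Of its 397 Spindlin1 peaks 326 (82.1%, 78.0 to 85.8) were shared, and of its 446 C11orf84 peaks 307 (68.8%, 64.3 to 73.1). It contained the C11orf84 peak of highest fold in the region, at 1801372 to 1801966, which stood at place 42 of the whole C11orf84 list. Spindlin1 had 16 fragments and a fold of 8.72 there, and C11orf84 28 fragments and a fold of 14.2. At the next C11orf84 peak by fold, 1918278 to 1919238, Spindlin1 had 14 fragments and C11orf84 24 (fold 12.3). At 2569337 to 2569630 Spindlin1 had 13 and C11orf84 21 (fold 10.8). For Spindlin1 the highest folds were at 1846581 to 1847154 (22 fragments, fold 11.8), at 2179750 to 2180337 (20 fragments, fold 10.8) and at 2011684 to 2011894 (19 fragments, fold 10.2). C11orf84 had 13, 18 and 16 fragments at these.

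Some of the highest folds lay in the sparse inner stretch. The Spindlin1 peak at 3867940 to 3868225 had the highest fold of that list in the region, 13.9, and stood at place 29 of all Spindlin1 peaks. The window around it, 3.8 to 3.9 Mb, had only 11 Spindlin1 and 12 C11orf84 peaks. At 3945072 to 3945416 Spindlin1 had a fold of 11.3 and C11orf84 a fold of 10.8, both at 21 fragments. At 2896498 to 2897338 C11orf84 had 23 fragments and a fold of 11.8. That peak met 2 Spindlin1 peaks, the deepest, of 14 fragments, at 2896140 to 2896677, short of the C11orf84 summit at 2896906. Another Spindlin1 summit lay at the same base as the C11orf84 summit. In the outer part, Spindlin1 had a fold of 12.3 at 164014 to 164265 (23 fragments) and of 11.8 at 548288 to 548642, 1203679 to 1204210 and 1779167 to 1779792 (22 fragments each). C11orf84 had 16, 13, 20 and 19 fragments at these 4. At 759325 to 760361 and at 1777768 to 1778696 Spindlin1 had 26 and 16 fragments, and C11orf84 had 24 at each, with a fold of 12.3. At the first of them the summits of both proteins were 623 bp apart. The 5 leading peaks of both lists were all shared. Elsewhere in the genome 98.3% of Spindlin1 and 94.2% of C11orf84 peaks on the floor were shared from 20 fragments upwards.

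Very wide peaks were few, and most were of C11orf84. Intervals 2 kb or longer were found 2 times for Spindlin1 (0.115%, 0.0139 to 0.415) and 12 times for C11orf84 (0.647%, 0.335 to 1.13), against 0.177% and 0.308% elsewhere, and all lay before 1.8 Mb. The widest was a C11orf84 peak of 5311 bp at 1073429 to 1078739 (25 fragments, fold 12.2), which spanned 4 Spindlin1 peaks. C11orf84 peaks at 1056086 to 1059108 (3023 bp) and at 668625 to 671368 (2744 bp) also met 4 Spindlin1 peaks each. The C11orf84 peak at 1035540 to 1038315 (2776 bp), on a background of 2.18 times the floor, met 3. The widest Spindlin1 peak was 2194 bp long, at 1058289 to 1060482, and the next after the one in TERT was 1813 bp long, at 1505620 to 1507432. In all, 102 Spindlin1 peaks met 2 or more C11orf84 peaks, and 168 C11orf84 peaks met 2 or more Spindlin1 peaks (5.87% and 9.06%, against 4.17% and 5.53% elsewhere).

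Peaks found in a single list were shallower and mostly near a peak of the other. There were 258 such Spindlin1 and 466 C11orf84 peaks, with a median depth of 11 and 12 fragments, whereas shared peaks had 13 and 14. The same pattern held elsewhere, with 10 and 11 fragments in peaks of a single list and 12 and 13 in shared ones. Their median widths were 190 and 208 bp, whereas shared peaks had 300.0 and 345 bp. A summit of the other list lay within 1 kb of 155 of the Spindlin1 (60.1%) and 279 of the C11orf84 ones (59.9%), against 40.8% and 38.7% elsewhere. It was farther than 5 kb from 26 (10.1%) and 35 (7.51%), against 28.4% and 26.6%. The shares within 1 kb were 81.3% and 76.5% from 0 to 1.8 Mb, and 28.8% and 38.2% in the sparser stretch from 2.8 to 5 Mb. Where peaks are denser, more summits lie near each other by position alone, and the share due to that was not tested. The highest folds among them were 10.3 for Spindlin1 at 469461 to 469798 and at 1508548 to 1508754 (19 fragments each), and 11.3 for C11orf84 at 1105484 to 1105794 (22 fragments). The nearest summits of the other list were 848, 338 and 404 bp away. Next came 1164878 to 1165101 for Spindlin1 (fold 9.44), and 658222 to 658528 (fold 10.8) and 2270623 to 2270986 (fold 9.71) for C11orf84. A missing peak is the absence of a call at that depth and does not measure the absence of the protein.

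The first window from the tip, 0 to 0.1 Mb, held 24 Spindlin1 and 23 C11orf84 peaks, and the last, 4.9 to 5 Mb, held 3 and 5. The first peaks from the tip were at 13103 to 13284 for Spindlin1 (11 fragments) and at 32233 to 32453 for C11orf84 (15 fragments), and neither was shared. The last inside the 5 Mb limit were at 4942403 to 4942581 (16 fragments) and at 4943127 to 4943320 (11 fragments), and the first beyond it at 5131339 to 5131513 (13 fragments) and at 5034696 to 5034943 (13 fragments).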

How the data were processed

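Spindlin1 and C11orf84 peaks of U2OS cells were analysed, 1 library per antibody, with a deposited list each. Per the submitters' processing notes, alignment was by Bowtie 1.2.2 to hg19. Which peak caller, threshold and control were used is not given in the sources at hand. The deposited fold, a ratio of the summit to a local background, and the deposited −log10 p-value and −log10 q-value are the authors' own and describe, rank and filter peaks within a list. The deposited score repeats the −log10 q-value, multiplied by 10 and cut to a whole number, and was not used. Coordinates are printed counting from 1. Where a named peak met several peaks of the other list, the depth given there is of the deepest unless stated otherwise.

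Summit depth k and background λ were recovered from fold = (k + 1)/(λ + 1) with the upper Poisson tail above k taken as the p-value. The largest error was 0.000174 in −log10 p for Spindlin1 and 0.000148 for C11orf84. A tolerance of 0.1% defined the floor. Total read numbers are unknown. Chromosome Y was left out. Density elsewhere used the 2658 Mb without stretches of 1 Mb or more free of peaks. On simulated data 100% of 4646 depths and of 4000 overlap calls were returned. The simulated depths were made with the same formula, so this checks the code and not whether the peak caller used that formula. Software was SciPy 1.17.1 with NumPy 2.4.6, pandas 2.3.3, Python 3.11.15, and matplotlib 3.10.9 for figures.

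The members, lists, gene names and motifs were chosen with earlier results of these data known. Peaks were named by a rule: the 5 of highest fold, the 3 widest, the 3 unshared of highest fold, the first and last, those beside the 5 Mb limit, and the 5 of highest fold in TERT. The runs of peaks, tiles, TERT parts, pairs, depth classes and the peaks named by stretch or as extremes were chosen after the values were seen. The count of gene starts with a peak, planned for an hg19 annotation, was not made, and peak sequences were not read, as no hg19 genome was used here.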

Additional observations from a re-analysis of the deposited data

How the results depend on the processing

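Counts and shares moved with the threshold and with the overlap asked for, while the higher density of the region held under every setting tried. Among peaks whose −log10 q reached 10, the region held 331 Spindlin1 and 572 C11orf84 peaks, the TERT interval 9 and 12, and the IRX4 to IRX2 stretch 51 and 112. The floor then held 60.1% and 57.9% of peaks, and the density ratio to the rest of the genome was 9.92 and 11.1. That ratio was 10.7 and 9.34 for the outermost 2 Mb, 3.59 and 3.33 for the outermost 10 Mb, and 11.6 and 10.8 against the rest of chromosome 5. The shared part was 58.3% of Spindlin1 and 54.7% of C11orf84 peaks with at least 50% of both intervals covered, against 47.4% and 40.9% elsewhere. It was 63.9% and 59.8% with summits at most 200 bp apart, against 55.0% and 47.4%, and 57.1% and 31.5% among peaks at or above that −log10 q in both lists, against 48.9% and 30.8%, so that the higher sharing of C11orf84 peaks was not seen there. The cause was not tested. The other 6 values tried (membership by whole interval, any overlap with the TERT interval, and a floor tolerance of 1%) moved by less than 1.5 times or stayed within the 95% interval. Other windows around gene starts were not run, as no hg19 annotation was used. No paired analysis was possible because each antibody has 1 library. With 97.4% of Spindlin1 and 94.3% of C11orf84 summits under 20 fragments (95.6% and 93.9% elsewhere), single depths are imprecise.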
